A study of Homo sapiens with 6 samples.

Results

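CRAMP1 (called CRAMP1L in older annotations) was followed peak by peak in the 75 kb hg19 window chr16:1655000-1730000, in accessible-chromatin (ATAC-seq) libraries of U2OS cells, an established human osteosarcoma line. ATAC-seq uses a transposase to cut accessible DNA and insert sequencing adapters, so that reads pile up where chromatin is open. Every peak that touched the window in any of the 6 deposited peak lists was taken, and peaks that overlapped by at least 1 bp in any libraries were joined into 1 site. This gave 55 peaks at 15 sites, of 248031 such sites in the genome, numbered 1 to 15 along the chromosome. There were 3 libraries of wild-type (WT) U2OS cells and 3 of U2OS cells labelled CRAMP1-KO, and the labels name no treatment for either group. Neither the edit that made the knockout, nor whether the CRAMP1-KO cells are 1 clone, nor whether replicates are separate cultures is given in the sources used here. The p-values therefore rest on the spread among these libraries, and that spread may be technical. Peaks report accessibility and not the edit or the transcript, so they do not check the knockout label.

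CRAMP1 is the human relative of the Drosophila protein Cramped, carries a SANT (Myb-like) domain and is known as an activator of the genes for linker histone H1, the histone that sits where DNA enters and leaves the nucleosome. Accessible sites of an expressed gene usually comprise a broad, strong site at the promoter, where nucleosomes are cleared, and weaker sites inside the gene, some of which are enhancers or intragenic promoters. The design asks how accessibility differs without CRAMP1, and this window shows it at the targeted gene itself.

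The window holds the starts of 3 genes. In the RefSeq annotation of GRCh38.p14, CRAMP1 and IFT140, a gene of the transport system inside cilia, start 288 bp apart and run in opposite directions, and JPT2 (formerly HN1L), known as an NAADP-binding protein, starts 371 bp past the end of CRAMP1. No hg19 annotation was used here, and gene starts in hg19 were taken from general knowledge to the nearest kb. The spacing gives a check: the CRAMP1 and JPT2 starts are 65.9 kb apart in RefSeq, and the summits of sites 2 and 15 were 66.0 to 66.1 kb apart in the 6 libraries. Sites with a summit within 1 kb of a start are called promoter sites: site 2 for CRAMP1 and IFT140, and site 15 for JPT2. Sites 3 to 14 lie between them and are called intragenic. Besides CRAMP1, the RefSeq table lists 3 loci with only LOC numbers there. Exons and introns were not analysed here.

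The RefSeq promoter sequences (GRCh38.p14, 250 bases before to 50 after the start, plus strand) are shown for the promoters at the ends of the gene, since the strongest peaks of the window lie there. Capitals mark CCAAT (the CCAAT box) and GGGCGG (the GC box) on either strand.
CRAMP1, chr16:1612110-1612409: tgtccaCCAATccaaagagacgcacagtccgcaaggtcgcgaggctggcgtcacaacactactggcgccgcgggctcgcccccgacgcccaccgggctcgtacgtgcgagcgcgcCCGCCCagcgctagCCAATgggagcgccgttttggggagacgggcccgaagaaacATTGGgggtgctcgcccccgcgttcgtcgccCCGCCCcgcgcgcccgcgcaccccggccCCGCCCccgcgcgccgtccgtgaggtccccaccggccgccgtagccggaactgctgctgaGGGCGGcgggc
JPT2, chr16:1678029-1678328: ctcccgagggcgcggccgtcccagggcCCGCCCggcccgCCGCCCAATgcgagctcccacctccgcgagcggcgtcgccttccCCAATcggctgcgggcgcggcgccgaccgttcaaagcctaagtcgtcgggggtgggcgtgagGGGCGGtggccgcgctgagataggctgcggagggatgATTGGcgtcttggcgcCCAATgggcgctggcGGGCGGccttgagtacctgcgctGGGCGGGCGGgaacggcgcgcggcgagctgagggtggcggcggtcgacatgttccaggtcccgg

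Both promoters are rich in CG pairs and carry the same classes of motif. CRAMP1 had 47 CG pairs and JPT2 had 45, against a median of 14 over 35116 RefSeq promoters of this length. CCAAT occurred 3 times in the CRAMP1 window and 4 times in the JPT2 window, and 34.6% of all promoters hold it at least once. GGGCGG occurred 4 times in CRAMP1 and 6 times in JPT2, where 1 match overlaps a CCAAT and 2 overlap each other, and 45.0% of all promoters hold it. Of the other motifs searched on both strands, 0 matched either window shown: TATAAA (the TATA box, in 11.5% of promoters), CCGGAAG (ETS, 10.3%), GCGCATGC (NRF1, 3.05%), CACGTG (the E-box, 7.26%), TGACGTCA (the CRE, 1.85%), TGANTCA (AP-1, 7.71%) and AAGATGG (YY1, 5.84%). The IFT140 window on the minus strand shares 213 bases with that of CRAMP1. The RefSeq table holds another JPT2 window, which is not shown and has 1 TATAAA. A match is a run of letters and no evidence of binding.

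The libraries were called separately and held 132686 to 198875 peaks. A relative depth index, the lowest local background of a library over its lowest peak width, has a mean of 1 and was 1.60, 1.002 and 0.733 for WT replicates 1 to 3, against 0.827, 0.808 and 1.03 for CRAMP1-KO replicates 1 to 3. Values below are given in this order. The total number of reads is unknown. WT replicate 1 stood apart as the deepest library, with the lowest median fold enrichment, 4.25 against 5.96 to 6.26 in the others.

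The strong sites of the window were called in every library, and most weak ones were not. Of the 15 sites, 7 had a peak in all 6 libraries, against 37.3% of all sites in the genome. They were sites 1, 2, 7, 9, 13, 14 and 15. Another 6 sites were each called in 1 library only, in each case a WT library. Of all sites in the genome, 30.7% were called in 1 library only, of either genotype. Of these, sites 4, 5, 6 and 8 were in WT replicate 1, the deepest, which alone holds 14.8% of all sites. Site 10 was only in WT replicate 2 and site 11 only in WT replicate 3. Site 3 was in WT replicate 1 and CRAMP1-KO replicate 1, and site 12 was in 3 WT libraries and 1 CRAMP1-KO library, a pattern of 1.93% of all sites. The rule of 3 libraries of one genotype and 0 of the other was met by 0 of the 15 sites in either direction, where 1.14% of all sites were WT-only and 0.767% CRAMP1-KO-only by it. No site was found in CRAMP1-KO libraries alone. The shares of all sites called in any number of WT libraries alone, or of CRAMP1-KO libraries alone, were not computed.

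**Figure D1:**
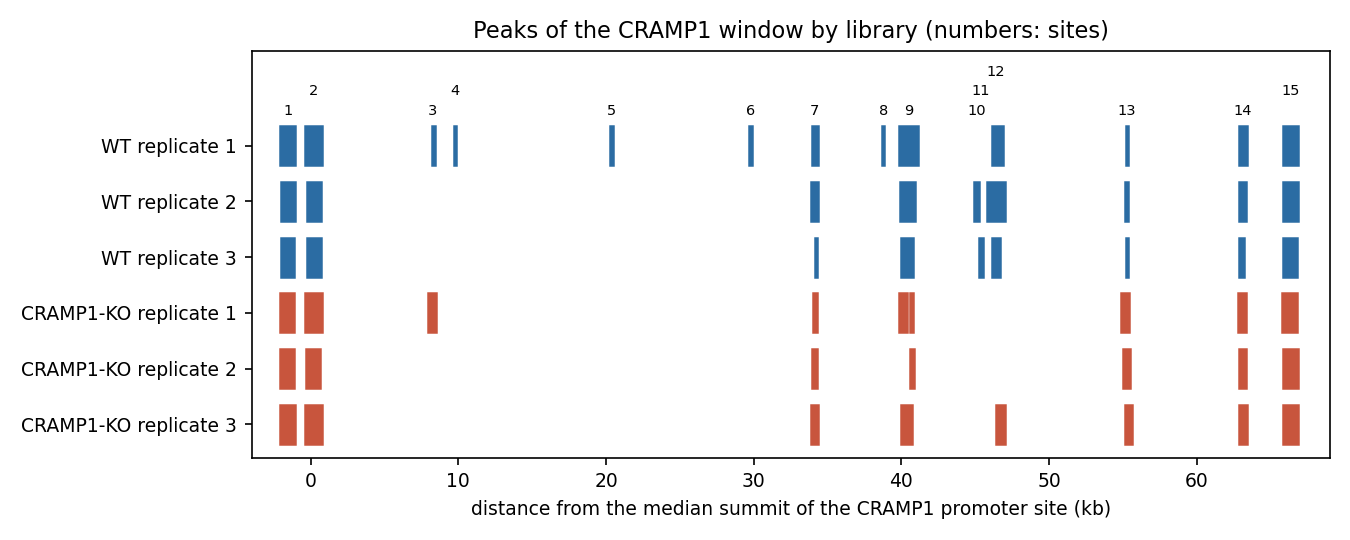
Each bar is 1 peak, drawn to scale along the x axis in kb from the median summit of site 2, with 1 row for each WT (blue) and CRAMP1-KO (red) library and site numbers on top. Sites 1, 2, 14 and 15 appear in every row, and site 13 is wider in the 3 CRAMP1-KO rows. Of the others, 6 sites each appear in only 1 WT row.

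The window's edges cut through no site. The nearest peak before the window ended 11 bp before it in CRAMP1-KO replicate 2 (pileup 9) and 302 bp before it in WT replicate 1 (pileup 20), and 6094 to 11374 bp before it in the other 4 libraries. After the window the next peak began 9254 to 9264 bp beyond its end in all 6 libraries.

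The CRAMP1 promoter, site 2, was open in WT and CRAMP1-KO cells alike in position and was among the strongest peaks of each list. It spanned 1661788 to 1662955 in WT replicate 1 and 1661775 to 1662920 in CRAMP1-KO replicate 1, and its summit lay at 1662167 in 5 libraries and 30 bp earlier, at 1662137, in CRAMP1-KO replicate 1. The authors' fold enrichment, the summit pileup plus 1 over the local background plus 1, was 12.9, 13.9 and 13.6 for WT, against 12.1, 12.6 and 12.5 for CRAMP1-KO. These folds ranked at the 81.1 to 87.9 percentile of their own lists, and the −log10 q values at the 96.8 to 97.7 percentile.

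The summit pileup, the number of reads or fragments stacked at the summit, was solved from fold and p. At site 2 it was 411, 474 and 303 for WT, against 282, 294 and 410 for CRAMP1-KO. Scaled so that the median region of all libraries is level, it was 312, 393 and 403 for WT, against 346, 352 and 328 for CRAMP1-KO. The lowest value was that of WT replicate 1, and the groups overlapped. The means were 369 ± 50.0 and 342 ± 12.4 (SD, n = 3), a log2 change of -0.10 in CRAMP1-KO (SE 0.09) that did not pass limma's test over the 92505 regions with a peak in all 6 libraries (limma adjusted p = 0.457). Without WT replicate 1 the change was -0.22 (limma adjusted p = 0.0826). Its width was 1168, 939 and 911 bp for WT, against 1146, 949 and 1144 bp for CRAMP1-KO, a log2 change of 0.11 (SE 0.13, limma adjusted p = 0.727).

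Site 15, the JPT2 promoter, had the highest pileup of the window in every library. By fold, site 2 was higher than site 15 in CRAMP1-KO replicates 1 (12.136 against 11.568) and 3 (12.508 against 10.998). Its summit was at 1728194 in 5 libraries and 5 bp further in WT replicate 3. Scaled pileup was 383, 471 and 457 for WT, against 385, 412 and 353 for CRAMP1-KO. The WT replicates 2 and 3 lay above all others, while WT replicate 1 lay below 2 of the CRAMP1-KO libraries. The log2 change was -0.19 (SE 0.10, limma adjusted p = 0.151), and without WT replicate 1 it was -0.28 and passed the test (limma adjusted p = 0.027). With any 1 other library left out, the change was -0.24 to -0.13 and did not pass (limma adjusted p of 0.105 to 0.464). The width overlapped, at 1042, 1039 and 979 bp for WT, against 983, 1022 and 1036 bp for CRAMP1-KO.

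Site 1, on the IFT140 side of the shared start, fell in CRAMP1-KO. It lies at 1660100 to 1661136, with its summit at 1660650 in all 6 libraries, at -1517 bp from the median summit of site 2, and belongs to neither class of site. Scaled pileup was 169, 172 and 186 for WT, against 127, 138 and 145 for CRAMP1-KO, with every CRAMP1-KO library below every WT library. The means were 176 ± 9.11 and 137 ± 8.69 (SD, n = 3), a log2 change of -0.37 (SE 0.10, limma adjusted p = 0.00347). Its fold was 6.89, 6.07 and 6.26 for WT, against 4.43, 4.89 and 5.47 in CRAMP1-KO. Its width overlapped, at 909 to 1037 bp for WT, against 931 to 970 bp for CRAMP1-KO.

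The call at site 1 is of a common kind and rests on the scaling. With any 1 library left out it was kept (limma adjusted p of 0.00327 to 0.0316). limma called 11.1% of the 92505 regions lower in CRAMP1-KO and 12.6% higher, 53.2% of calls being higher. Scaled to the relative depth index in place of the median region, 86.1% of calls were higher, and site 1 lost its call with a log2 change of -0.27 (SE 0.24, limma adjusted p = 0.709). Of the 7 window sites, 1 had pileups apart and lower in CRAMP1-KO (site 1), where 18.2% of all regions did, and 1 apart and higher (site 14), where 19.0% did.

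Site 14, at 1724938 to 1725567 and 63.1 kb from the median summit of site 2, went the other way. It is the intragenic site nearest the JPT2 promoter. Scaled pileup was 166, 172 and 168 for WT, against 201, 214 and 186 for CRAMP1-KO, so the libraries did not overlap. The means were 168 ± 2.73 and 201 ± 13.9 (SD, n = 3), a log2 rise of 0.25 (SE 0.09, limma adjusted p = 0.0414). This call was lost without any 1 WT library (limma adjusted p of 0.0870, 0.0904 and 0.120 without WT replicates 1, 2 and 3) and without CRAMP1-KO replicate 1 (0.0817) or 2 (0.165). It was also lost in the depth scaling (0.562), without limma's trend (0.130) and with the mean pileup of a region's peaks (0.0725). Its width was 534, 514 and 361 bp for WT, against 583, 514 and 562 bp for CRAMP1-KO, which overlap.

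**Figure D2:**
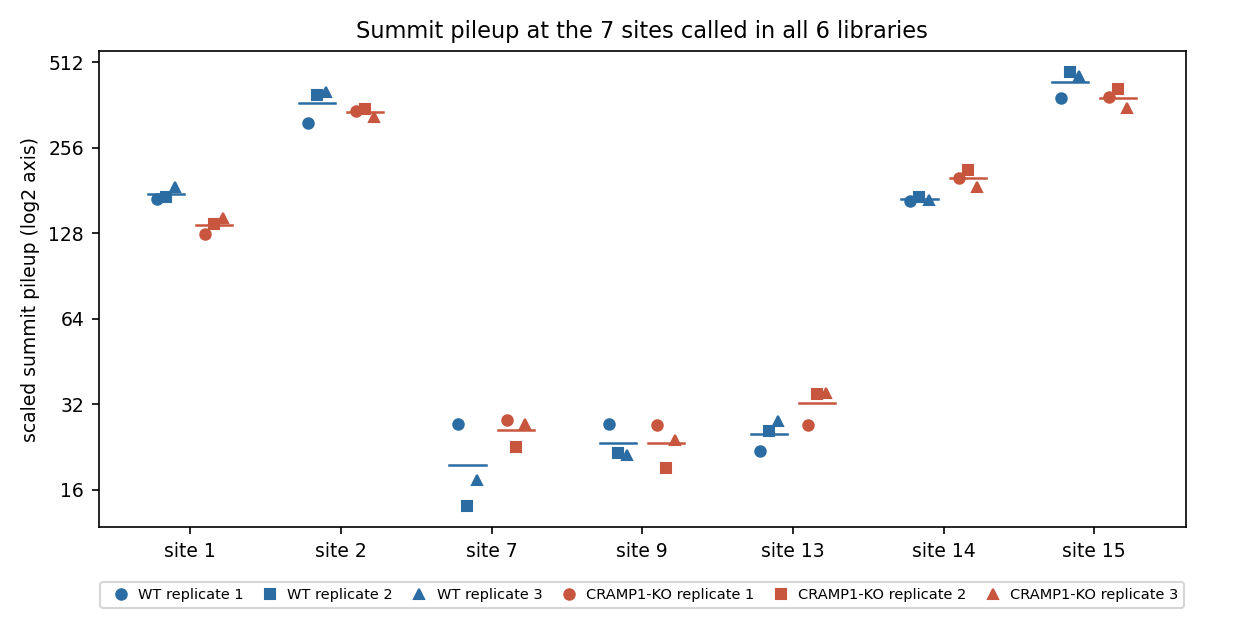
Scaled summit pileup (y axis, log2) at the 7 sites with a peak in all 6 libraries, with 1 symbol per library and a line at each group's mean. Site 1 is lower and site 14 higher in every CRAMP1-KO library, and the CRAMP1 promoter, site 2, overlaps between groups at 312 to 403 and 328 to 352.

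Site 13, deep in the gene at 55.3 kb from the median summit of site 2, had the clearest gap in width between the groups, without passing the test. In WT it was a narrow peak of 135, 181 and 162 bp, and in CRAMP1-KO it was 525, 478 and 467 bp wide. In WT it reached from 1717328 at the earliest (replicate 2) to 1717529 at the latest (replicate 3). The CRAMP1-KO peaks reached from 1717025 to 1717549, 1717191 to 1717668 and 1717305 to 1717771 in replicates 1, 2 and 3, so each library had its own edges. Summits lay between 1717447 and 1717501 in all 6 libraries. The covered bases were 3.09 times higher in CRAMP1-KO, with means of 159 ± 23.1 and 490 ± 30.8 bp (SD, n = 3) and a log2 change of 1.63 (SE 0.14, limma adjusted p = 0.0632), just above the threshold of 0.05. It passed when only peaks with a −log10 q from 5 upward were kept (limma adjusted p = 0.0383), in lists of equal length (0.0481) and without limma's trend (0.0473). With the replicate number as a block in the fit it did not pass (limma adjusted p = 0.391). With any 1 library left out the limma adjusted p ran from 0.121 to 0.229.

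The WT peaks at site 13 were close to the narrowest that the lists hold, which was 135, 163 and 147 bp in WT replicates 1, 2 and 3, so WT replicate 1 sat at that limit. The lowest width in the CRAMP1-KO lists was 163, 158 and 168 bp. limma called 0 of the 7 window sites for covered bases, with 1 (site 13) at an unadjusted p up to 0.05. Over all regions it called 1 of 92505, 0.00108%, with 13056 at an unadjusted p up to 0.05, and the median log2 change of all regions was 0.09. Of the 7 sites, 1 had covered bases apart and higher in CRAMP1-KO (site 13), where 19.2% of all regions did, and 1 apart and lower (site 9), where 3.03% did. A p as low as that of site 13 occurred in 0.0476% of all regions. The pileup at its summit overlapped, at 22.01, 25.7 and 28.0 for WT, against 27.0, 34.7 and 35.2 in CRAMP1-KO (log2 change 0.35, SE 0.20, limma adjusted p = 0.196).

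Site 9, at 1701991 to 1703269, covered fewer bases in each CRAMP1-KO library than in any WT library, without passing the test. It covered 1279, 1016 and 806 bp for WT, against 732, 260 and 773 bp for CRAMP1-KO. In CRAMP1-KO replicate 1 it was split in 2 peaks of 522 and 210 bp, and in CRAMP1-KO replicate 2 a peak was listed only from 1702741 on. The log2 change was -0.94, with an SE of 0.46 (limma adjusted p = 0.414), and without CRAMP1-KO replicate 2 it was -0.43 (limma adjusted p = 0.457). Scaled summit pileup was 27.3, 21.5 and 21.3 for WT, against 27.0, 19.1 and 24.0 in CRAMP1-KO, a log2 change of -0.01.

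Site 7, at 1696041 to 1696505, was a weak peak whose pileup was 36, 17 and 13 for WT, against 23, 19 and 34 for CRAMP1-KO before scaling. Scaled, it was 27.3, 14.1 and 17.3 for WT, against 28.2, 22.7 and 27.2 in CRAMP1-KO. WT replicate 1 sat with the CRAMP1-KO libraries. The log2 change was 0.46 (SE 0.22, limma adjusted p = 0.118), and without WT replicate 1 it was 0.73 and passed (limma adjusted p = 0.023). With any 1 other library left out, the change was 0.25 to 0.56 and did not pass (limma adjusted p of 0.103 to 0.508). Its width overlapped, at 147 to 421 bp for WT, against 324 to 458 bp for CRAMP1-KO.

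**Figure D3:**
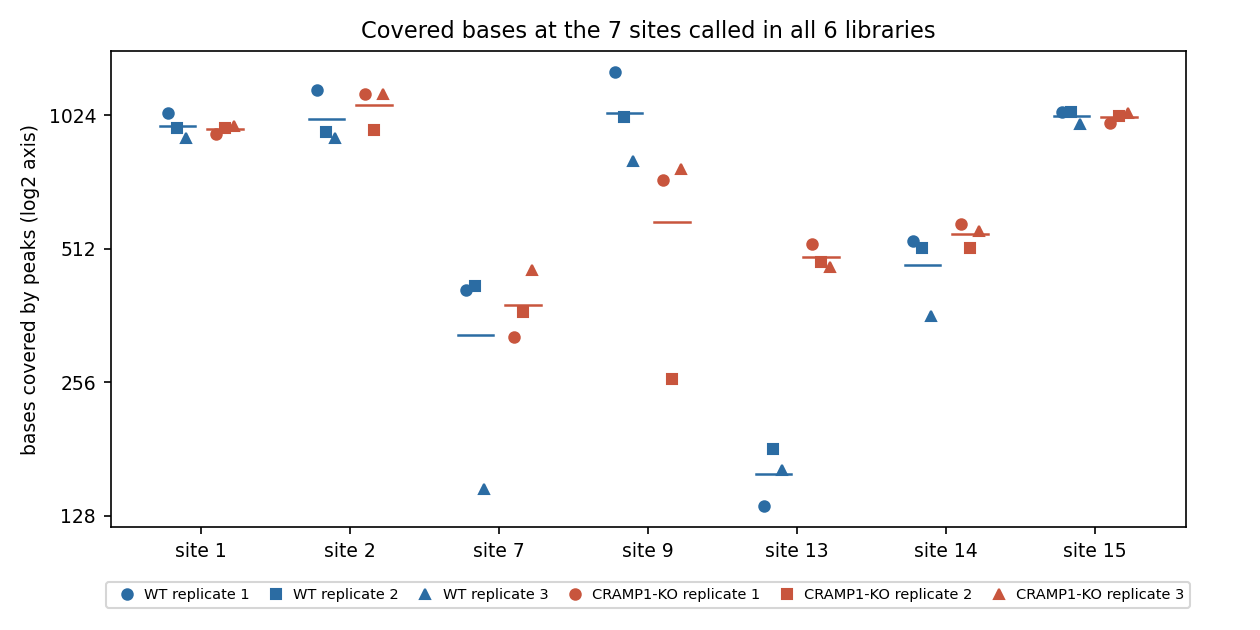
Bases covered by peaks (y axis, log2) at the 7 sites with a peak in all 6 libraries, with 1 symbol per library and a line at each group's mean. At site 13 the CRAMP1-KO libraries sit between 467 and 525 bp and the WT libraries between 135 and 181 bp, and at site 9 all CRAMP1-KO libraries lie below all WT libraries.

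The 8 intragenic sites outside this set had unscaled pileups of 14 to 27 wherever they were called. Site 12, at 1707934 to 1709174, was the broadest of them, with widths of 697, 1212 and 514 bp and unscaled pileups of 27, 25 and 17 in WT. It had a width of 615 bp and a pileup of 18 in CRAMP1-KO replicate 3 and was not listed in CRAMP1-KO replicates 1 and 2. The single-library sites 10 and 11, just before it, had pileups of 21 and 15. At sites 4, 5, 6 and 8 the pileup in WT replicate 1 was 14, 15, 23 and 24, with folds of 2.41, 2.37, 2.56 and 2.48. The lowest pileup of any peak in that library was 13, and in the other lists it was 9 to 11. The part of depth in these sites was not tested. Site 3 was stronger in CRAMP1-KO replicate 1, with fold 4.05 and a width of 523 bp, than in WT replicate 1, with fold 2.45 and 188 bp. An unlisted peak is one below the authors' threshold in that list and not shown to be closed chromatin.

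Promoter sites stood above intragenic ones in every library, far above sites 7, 9 and 13 and less far above site 14. Scaled pileup was 14.1 to 35.2 at sites 7, 9 and 13 and 166 to 214 at site 14, against 312 to 403 at site 2. The mean log2 pileup of the 2 promoter sites exceeded that of the 4 intragenic sites with a peak in all 6 libraries by 3.09, 3.66 and 3.57 for WT, against 3.02, 3.17 and 2.90 in CRAMP1-KO. The gap was 3.44 ± 0.308 for WT, against 3.03 ± 0.132 in CRAMP1-KO (SD, n = 3), and WT replicate 1 lay among the CRAMP1-KO values. The smallest p possible in the two-sided exact permutation test over the 20 assignments is 0.1, above the threshold used for limma. That test therefore cannot decide whether the gap differs between groups. The difference of the gap was -0.41 (exact permutation p = 0.2). Of its parts, the promoter mean overlapped between groups (exact permutation p = 0.3). The intragenic mean was 5.35, 5.09 and 5.18 for WT, against 5.49, 5.41 and 5.51 in CRAMP1-KO. That mean was higher in every CRAMP1-KO library (exact permutation p = 0.1, the smallest possible). It holds only for the 4 sites called in all 6 libraries. The 8 left out include site 12, called in 3 WT libraries and 1 CRAMP1-KO library. Among these 4 sites the log2 change was 0.46 (SE 0.22) at site 7 and -0.01 (SE 0.21) at site 9. It was 0.35 (SE 0.20) at site 13 and 0.25 (SE 0.09) at site 14. Only site 14 passed limma's test, in a call lost under several alternatives, and no test compared the sites.

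Covered bases were counted by class as well, since sites missing in some libraries enter there. Per 1000000 covered bases of the library, the promoter sites covered 23.2, 23.8 and 28.2 for WT, against 27.1, 25.3 and 23.7 in CRAMP1-KO. The intragenic sites covered 42.1, 44.2 and 33.3 for WT, against 34.2, 20.8 and 31.2 in CRAMP1-KO, where CRAMP1-KO replicate 1 lay above WT replicate 3 (exact permutation p = 0.2). The number of intragenic peaks was 10, 6 and 6 for WT, against 6, 4 and 5 for CRAMP1-KO, and every library had 2 promoter peaks. The lower covered share of the whole window in CRAMP1-KO, -11.3 per 1000000, was made up of -11.1 at intragenic sites, -0.427 at site 1 and 0.317 at promoter sites.

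Local background, which the peak caller takes from the surroundings of a summit, was nearly the same at sites 1 and 2, and at sites 14 and 15. It was 31.5 at site 1 and 31.0 at site 2 in WT replicate 1, and 36.4 at site 14 and 36.1 at site 15. At sites 7, 9 and 13 it was 3.43 to 9.13 over the 6 libraries. Scaled to the median region, the background changed by -0.05 at sites 1, 2 and 7, by 0.01 at site 14 and by 0.03 at site 15 on the log2 scale. At sites 9 and 13 it changed by -0.14 and -0.11. The change was smaller than that of the pileup at sites 1 and 14, and larger than that of the pileup at site 9 (-0.01).

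The window was set beside its neighbourhood. Within 500 kb on either side, 108 regions had a peak in all 6 libraries, their median log2 change of pileup was -0.03, and limma called 20 of them, beside 23.6% of all 92505 regions. The 7 window sites had a median of -0.01, beside -0.00 over all regions, with 4 lower and 3 higher in CRAMP1-KO and 2 called. The median scaled log2 pileup of the window minus that of the flanks was 0.68, 0.64 and 0.60 for WT, against 0.18, 0.39 and 0.41 in CRAMP1-KO, a difference of -0.31. A median of 7 sites is the value of 1 site, and here it was site 14 in the 3 WT libraries and site 1 in the 3 CRAMP1-KO libraries. The difference thus sets different sites against each other and is no change of the window, so no test is given. With only peaks of −log10 q from 5 upward, which leaves 5 sites, it was 0.29.

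**Figure D4:**
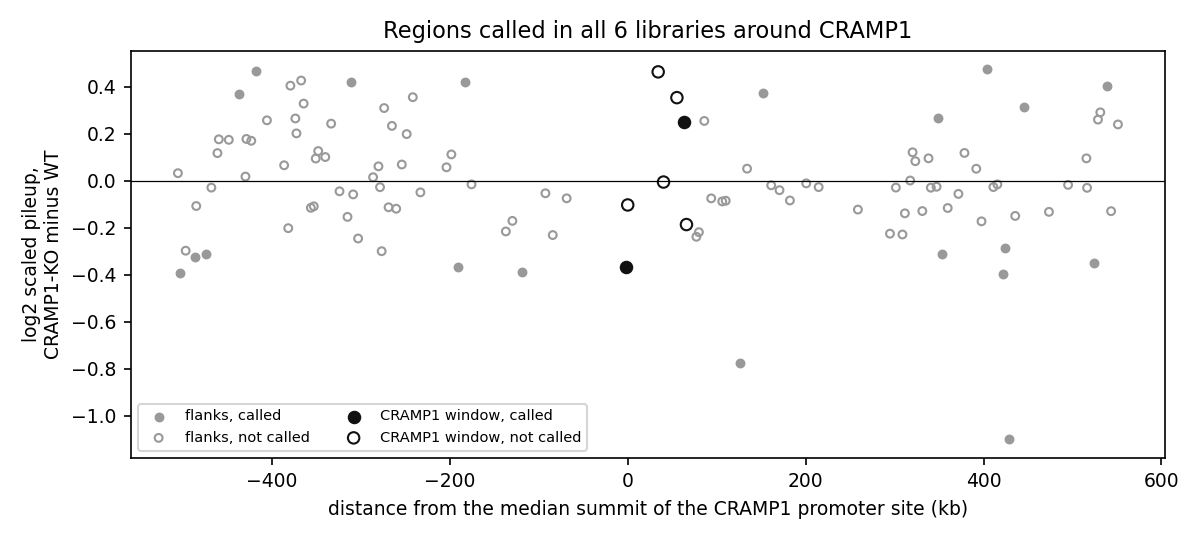
Log2 change of scaled pileup (CRAMP1-KO minus WT, y axis) of each region with a peak in all 6 libraries, against its distance in kb from the median summit of site 2. Filled symbols passed limma's test, and the 7 window sites (black) lie from -0.37 to 0.46, with called and uncalled flank regions (grey) on both sides of 0.

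Pairs of libraries of like depth were compared with no test. Assigned one to one by depth index, only WT replicate 3 and CRAMP1-KO replicate 2 were close (ratio 1.10). With libraries used more than once, so were WT replicate 2 and CRAMP1-KO replicate 3 (1.02) and WT replicate 3 and CRAMP1-KO replicate 1 (1.13). The next closest pair had a ratio of 1.21 and was not used, and WT replicate 1 has no match. Since 2 of the pairs share a WT library, they are not independent.

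In the 3 pairs, scaled pileup was lower at sites 1, 2 and 15 and higher at sites 7 and 14 in the CRAMP1-KO library each time. At the CRAMP1 promoter the log2 difference of scaled pileup was -0.26, -0.22 and -0.20 in the order CRAMP1-KO replicate 3, 1 and 2. At site 1 it was -0.25, -0.55 and -0.44, and at site 14 it was 0.12, 0.26 and 0.35. Sites 9 and 13 changed sign between pairs on this scale, at 0.16, 0.34 and -0.15 for site 9 and 0.45, -0.05 and 0.31 for site 13. Before scaling, the differences were 0.21, 0.46 and 0 at site 9 and 0.51, 0.07 and 0.47 at site 13, with none negative. Site 13 covered 181 and 467 bp, 162 and 525 bp, and 162 and 478 bp in the WT and CRAMP1-KO library of each pair. Without scaling, the pileups at the CRAMP1 promoter were 474 and 410, 303 and 282, and 303 and 294 in WT and CRAMP1-KO. At site 15 they were 569 and 441, 343 and 314, and 343 and 344, so the last pair was level there before scaling. The WT library had 9 sites in each pair, and the CRAMP1-KO library had 8, 8 and 7. All 3 pairs leave out WT replicate 1. Set against CRAMP1-KO replicate 3, at a depth ratio of 1.56, WT replicate 1 gave the opposite sign at sites 2 (0.07) and 7 (-0.01) after scaling. Sites 1 (-0.23), 14 (0.16) and 15 (-0.12) kept their sign there. The share of all regions with the same sign in the 3 pairs was not computed.

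**Figure D5:**
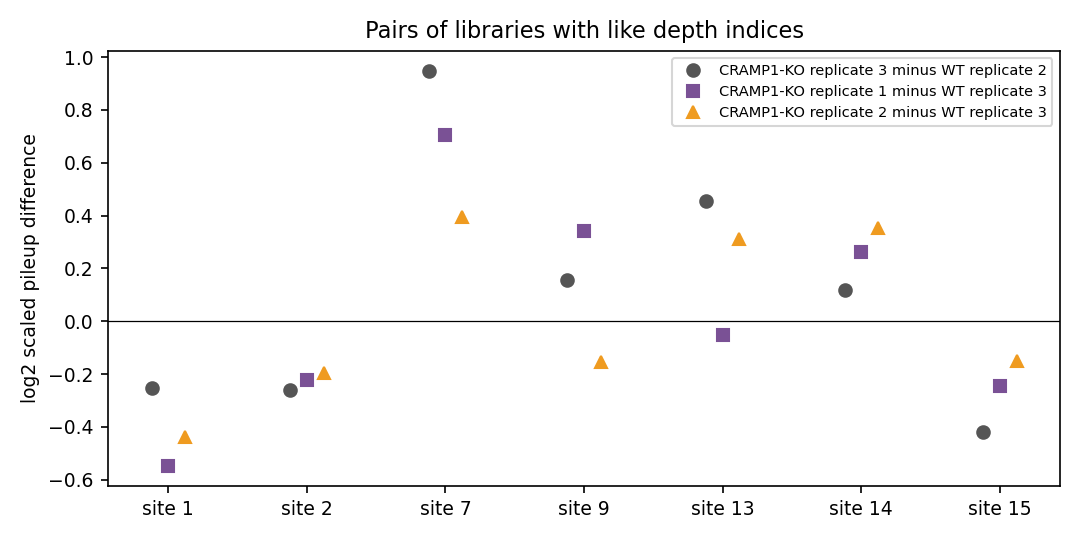
Log2 difference of scaled summit pileup (y axis, CRAMP1-KO minus WT library) at 7 sites in the 3 pairs of libraries whose depth indices differ by a ratio of 1.02 to 1.13. All 3 symbols lie below 0 at sites 1, 2 and 15 and above 0 at sites 7 and 14.

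Genes of linker histone H1, known targets of CRAMP1, were measured in the same way. Of 6 genes (H1-1, H1-2, H1-3, H1-4, H1-5 and H1-10), 4 had a region with a peak in all 6 libraries within 1 kb, and H1-3 and H1-5 had none. limma called 0 of the 4 for pileup, where 23.6% of all regions were called, with 0 at an unadjusted p up to 0.05, where 35.8% were. The log2 changes ran from -0.12 (H1-2) to 0.06 (H1-4). It called 0 of the 4 for covered bases, with 3 at an unadjusted p up to 0.05, where 14.1% of all regions were. The lowest limma adjusted p of covered bases was 0.0632, at H1-4, with a log2 change of 0.32. The change of largest size was that of H1-10, at -0.49 (limma adjusted p = 0.151).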

How the data were processed

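ATAC-seq was measured in 3 WT and 3 CRAMP1-KO U2OS libraries, from 50000 cells, 30 minutes of tagmentation and 7 PCR cycles each, per the labels' protocols. The submitters' processing notes name bcl2fastq 2.20.0, cutadapt 3.4, BWA (0.7.17-r1188), MACS3 and hg19. The MACS3 version and settings, duplicates and the transposase shift are not given in those notes or the labels. What the authors deposited is 1 peak list per library, with a fold ratio, −log10 p, −log10 q and a score of 10 times −log10 q for each peak, and no read counts.

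Pileup and background at each summit were solved from the deposited fold and Poisson −log10 p, and all pileups came out within 0.01 of a whole number. Chromosomes 1 to 22 and X were used. Log2 pileup (highest peak per region, scaled to the median log2 ratio) and log2 covered bases of the 92505 regions shared by all 6 libraries were fitted with limma 3.58.1 (R 4.3.3, trend, no block), two-sided, with Benjamini-Hochberg adjustment over all regions and a threshold of 0.05. Values per library were compared by exact permutation. Python 3.11.15, numpy 2.4.6, pandas 2.3.3, scipy 1.17.1 and matplotlib 3.10.9 did the rest. Both steps were tested on simulated data.

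All window sites were named whatever their values. So were 6 H1 genes, by the strongest shared region within 1 kb (another gene of the list is not reported here), and the 3 regions whose pileup correlated best with that of the CRAMP1 promoter. Gene positions in hg19 were written by hand. The window, the lists and the tests were chosen with earlier results of these data known. The rule for promoter sites did not say whether a site's edge or summit counts, and summits were used. Counting the site on the IFT140 side as a promoter, and pairing libraries more than once, were chosen after seeing the data.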

Additional observations from a re-analysis of the deposited data

How the results depend on the processing

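No call is made for the CRAMP1 promoter under any alternative: its log2 change of pileup ranged from -0.22 (without WT replicate 1) to -0.01 (depth scaling) over 15 of them (limma adjusted p of 0.0826 to 0.999) and that of covered bases from 0.01 to 0.22 over 13. Promoter minus intragenic pileup kept its sign in 12 alternatives, from -0.58 to -0.30. Lists of equal length, merging of peaks up to 100 bp apart and a promoter limit of 500 bp left it unchanged at -0.41. With site 1 counted as a promoter site it was -0.48, and counting site 1 as intragenic was not tried. No permutation test here can pass 0.05. With only peaks of −log10 q from 5 or 10 upward, window minus flanks, which compares different sites, turned from -0.31 to 0.294 and 0.0722, and the share of peaks from -0.0812 to 0.0745 and 0.0768 per 10000. At 10 the covered share turned from -11.3 to 5.66 per 1000000. These limits leave 5 and 4 of the 7 shared sites. Site 9 pileup turned from -0.01 to 0.0916 with depth scaling and 0.0106 with scaling over chromosome 16 alone, and ranged from -0.11 to 0.13 with 1 library left out. Covered bases with 1 library left out ranged from -0.0664 to 0.0286 at site 1, -0.0380 to 0.0132 at site 15 and -0.14 to 0.62 at site 7, the -0.14 without WT replicate 3. The cause was not tested.

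Regions called for pileup numbered 21877, and 3304 with depth scaling. For covered bases they numbered 1, and 163 and 409 at the q limits, 59 in lists of equal length, 130 without trend, 2 with scaled covered bases and 0 with any 1 library left out. With the replicate block they were 21410 and 0. The replicate block left the CRAMP1 promoter at -0.10 (limma adjusted p = 0.472) and changed no call at a window site. Whether equal replicate numbers mark libraries made together is not given in the sources used here. Deviations of same-numbered libraries correlated at 0.06, 0.06 and -0.09 over regions, and WT replicate 1 correlated most with CRAMP1-KO replicate 3 (0.10). With 3 libraries per group these values neither show nor exclude a pairing. Pileups at sites 7, 9, 12 and 13 were 13 to 44, where the lowest of each list was 9 to 13.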

Other observations

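By Pearson's r of scaled log2 pileup over the 6 libraries, a description over few points that share their libraries, the regions most like the CRAMP1 promoter among 87649 compared (outside the 500 kb flanks and chromosome 8) lay on chromosome 6 at 167733386 to 167734803, chromosome 10 at 61664997 to 61666939 and chromosome 5 at 110559206 to 110560722, each with r of 0.998. Their scaled pileups, like that of the promoter, were lowest in WT replicate 1 and highest in WT replicate 3, which follows from their choice by r. An r of at least 0.95 was reached by 204 regions. Within the window, r with the CRAMP1 promoter was 0.90 at site 15, the JPT2 promoter, 0.46 at site 1 and -0.89 at site 7. The share of all regions at these values of r was not computed.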
